A study of Homo sapiens with 32 samples.

Results

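Cells take up, move, export and store cholesterol through a small set of dedicated proteins, and 10 genes of this kind were examined in SK-N-BE(2) neuroblastoma cells exposed to cannabidiol (CBD), a non-intoxicating compound of the cannabis plant. They are the lysosomal exporters NPC1 and NPC2, the carriers STARD3, STARD4 and OSBP, the surface proteins ABCA1, ABCG1 and SCARB1, the esterifying enzyme SOAT1 and the sterol-sensing receptor NR1H2. All 10 were found among the 22610 entries of the expression table. Of these, 9 reached a mean of 1 FPKM, a level scaled to transcript length and to sequencing depth, as did 12621 entries in all. ABCA1 did not, and was judged too low to call.

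RNA-Seq was carried out on SK-N-BE(2), an established human neuroblastoma line with MYCN amplification. Cultures received 20 µM CBD dissolved in ethanol, or the vehicle, 0.1% ethanol, and both arms were collected after 3, 6, 12 and 24 h. Each of the 8 groups held 4 samples, 32 in all, and every group came from the same line, so the comparisons describe 1 cell line in culture. A matched vehicle at each time separates the response to CBD from changes with time in the dish.

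Cholesterol that enters with lipoproteins is freed from its esters in the lysosome. NPC2 binds it in the lumen and hands it to NPC1 in the lysosomal membrane, and loss of either causes Niemann-Pick type C disease. From there cholesterol moves through the cytosol and across membrane contact sites on carriers with START or oxysterol-binding domains, is esterified by SOAT1 for storage in lipid droplets, or leaves the cell through ABCA1 and ABCG1. The oxysterol receptors LXRα (NR1H3) and LXRβ (NR1H2) switch on the efflux pumps when sterol is plentiful. SREBP-2 (SREBF2) acts when sterol in the endoplasmic reticulum is low and switches on uptake and synthesis.

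STARD4, a soluble START-domain protein that ferries cholesterol between membranes, showed the earliest call and the largest change of the 9 genes tested. It was higher with CBD from 6 h onward and reached 1.87 times the vehicle mean at 24 h. By 24 h NPC1, NPC2, ABCG1, SCARB1, SOAT1 and OSBP were also higher, with ratios of means from 1.06 for OSBP to 1.68 for NPC2. At that time 7 of the 9 were called, as were 42.1% of all genes tested. STARD3 and NR1H2 passed the test at no time. No member was lower at any time at an adjusted p under 0.01 (limma, Benjamini-Hochberg over all 12621 genes).

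The upstream sequences of STARD4, NPC2 and ABCA1 are shown because STARD4 and NPC2 had the largest CBD effects at 24 h of the 9 genes tested, and ABCA1 the largest ratio of vehicle means between 24 h and 3 h of the 10 (2.15). They were chosen after these values were seen. Each is the 250 bases before the annotated start, 5′ to 3′ on the strand of the gene, from RefSeq on GRCh38.p14, and capitals mark the motifs searched on both strands. For NPC2 it is the first of 2 annotated starts. They lie at chr5:111512536-111512785 (minus strand), chr14:74493513-74493762 (minus strand) and chr9:104928156-104928405 (minus strand).
STARD4: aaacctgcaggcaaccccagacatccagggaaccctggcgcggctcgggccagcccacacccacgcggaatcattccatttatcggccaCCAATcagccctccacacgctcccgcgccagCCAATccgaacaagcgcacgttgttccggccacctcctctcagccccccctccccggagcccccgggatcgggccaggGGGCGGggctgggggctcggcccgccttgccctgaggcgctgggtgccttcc
NPC2: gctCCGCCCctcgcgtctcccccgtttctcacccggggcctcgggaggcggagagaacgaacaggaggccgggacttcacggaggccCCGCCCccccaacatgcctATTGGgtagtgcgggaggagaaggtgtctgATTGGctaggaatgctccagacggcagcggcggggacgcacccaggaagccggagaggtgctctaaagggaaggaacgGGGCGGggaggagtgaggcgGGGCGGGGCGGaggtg
ABCA1: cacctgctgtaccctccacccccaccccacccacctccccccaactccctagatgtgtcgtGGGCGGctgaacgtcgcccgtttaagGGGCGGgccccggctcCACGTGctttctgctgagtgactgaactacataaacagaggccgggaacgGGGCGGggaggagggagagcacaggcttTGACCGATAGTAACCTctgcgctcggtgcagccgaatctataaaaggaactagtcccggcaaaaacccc

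The motifs were the sterol element TCACNCCAC, the NF-Y box CCAAT, the GC box GGGCGG, the E-box CACGTG, and an LXR element of NGGTNA repeated after 4 bases. STARD4 held CCAAT 161 and 130 bases before its start and GGGCGG 52 bases before it. NPC2 held CCAAT on the opposite strand 144 and 114 bases before the start shown. It also held 5 GC boxes there, of which the pair nearest the start overlaps by 1 base. The window of its other start held 0 CCAAT and 9 GC boxes. ABCA1 held the LXR element on the opposite strand, 69 bases before its start, 1 E-box and 3 GC boxes. Of 35116 promoter windows of the same length, 32.0% held CCAAT, 42.6% GGGCGG, 6.34% CACGTG, 0.883% TCACNCCAC and 0.530% the LXR element. None of the 8 members found in the RefSeq table held TCACNCCAC, which says only that these letters are not in this window. SCARB1 and ABCG1 had no entry there. A match is a description of the letters and no evidence of binding.

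On GRCh37, the build the reads were aligned to, the protein-coding genes lie at the following positions in GENCODE version 44. STARD4 spans chr5:110831731-110848288, NPC1 chr18:21086148-21166470, NPC2 chr14:74942895-74960880 and OSBP chr11:59341871-59383247, all on the minus strand. ABCA1 spans chr9:107543287-107690436 and SCARB1 chr12:125261402-125367214, also on the minus strand. ABCG1 spans chr21:43619799-43717354, STARD3 chr17:37793343-37820454, SOAT1 chr1:179262849-179327815 and NR1H2 chr19:50832910-50886645, on the plus strand. Exons of other genes cover a part of some canonical transcripts. The largest share was 8.77%, the 72 bases of NPC2 covered by MIR4709 on the same strand. In NPC1 it was 198 bases or 4.16% (RMC1, opposite strand), and in STARD4 124 bases or 2.68% (STARD4-AS1, opposite strand). OSBP (118 bases, 2.50%) and SCARB1 (167 bases, 4.905%) each overlap a noncoding gene on the opposite strand. Reads were described as stranded, but whether strand was used in counting is not given in the sources used here. Of the 50-base words of each transcript, 0.722% of those of SOAT1 and none of those of the other 9 occur in a gene that does not overlap it.

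Levels differed widely among the members on the length-scaled FPKM scale. SCARB1 stood above the rest, at 49.6 to 71.7 FPKM over the 32 samples. STARD3 (14.2 to 18.4 FPKM), STARD4 (9.61 to 22.4 FPKM) and OSBP (12.6 to 13.7 FPKM) followed, with ranges that overlap. NR1H2 came next at 6.98 to 9.02 FPKM, and its range did not meet those of STARD4 and SOAT1 but overlapped that of ABCG1. SOAT1 (4.63 to 6.41 FPKM), ABCG1 (3.21 to 7.36 FPKM) and NPC1 (3.63 to 5.65 FPKM) could not be ordered by their ranges. NPC2 was at 1.47 to 4.55 FPKM and ABCA1 at 0.472 to 1.56 FPKM, the lowest of the 10.

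**Figure D1:**
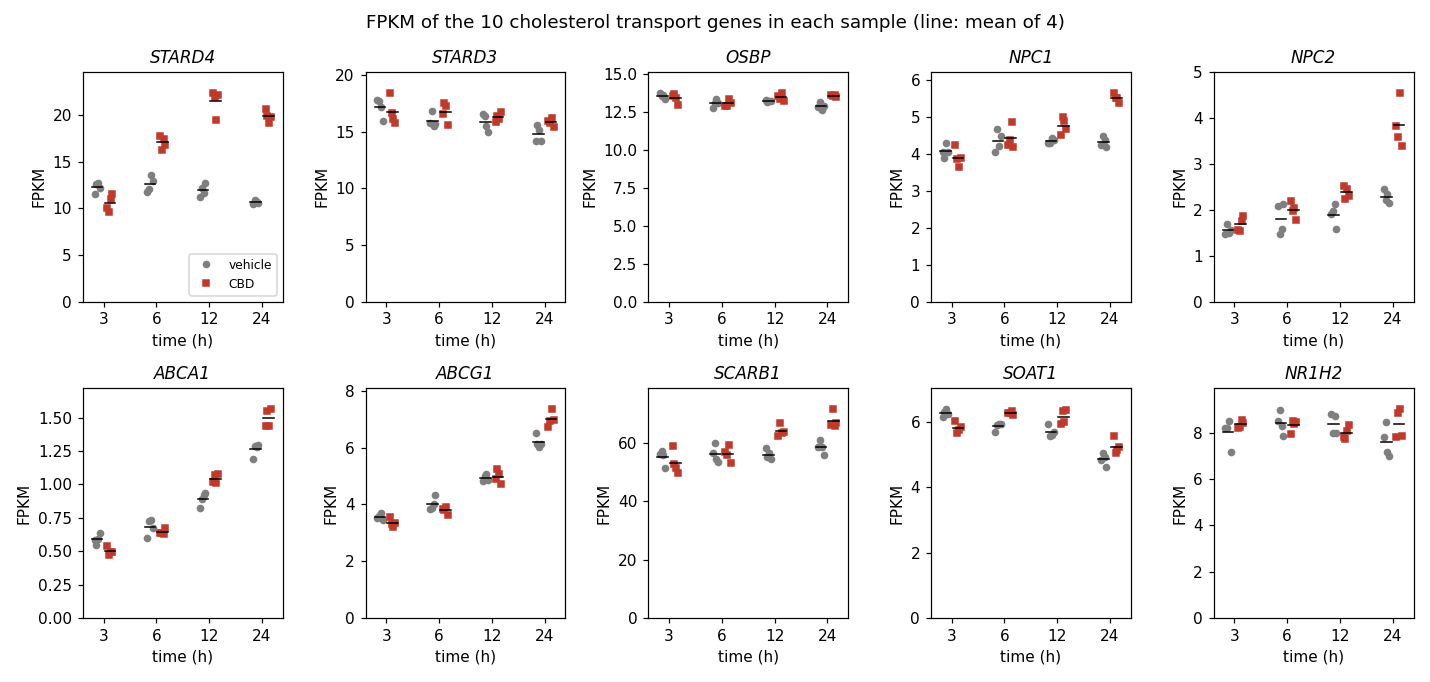
FPKM (vertical axes, from 0) against time in hours for each of the 10 genes, with grey circles for the 4 vehicle samples, red squares for the 4 CBD samples and a black line at each mean. STARD4 separates from 6 h onward, NPC1 and NPC2 most clearly at 24 h, and ABCA1 and ABCG1 climb with time in both arms.

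FPKM values carry no record of depth. The depth of one sample relative to another, estimated from 1414 genes of very low level, ran from 0.794 to 1.20 between samples, and 19359 to 19962 entries were above 0. The median of this estimate with CBD and with vehicle was 0.925 and 1.047 at 3 h and 0.954 and 1.053 at 6 h. It was 0.928 and 1.000 at 12 h and 1.001 and 1.018 at 24 h. The part of this difference in the values of low genes was not tested. All 11 neuroblastoma markers examined were present, from DBH at 3.74 to 13.9 FPKM up to MYCN at 1421 to 2452 FPKM. Of 9 markers of other cells, EPCAM (1.57 to 4.61 FPKM) and COL1A1 (1.02 to 2.43 FPKM) had a mean of at least 1 FPKM, while PTPRC, COL1A2, KRT5 and KRT14 were at 0 in 8, 4, 31 and 6 samples. The summed level of these 9 was 6.24 to 6.40 FPKM with vehicle and 7.32 to 7.82 FPKM with CBD at 24 h, against 3.59 to 4.09 FPKM and 3.66 to 4.01 FPKM at 3 h. Their part in the results below was not tested. In bulk RNA, fewer cells of a kind and less RNA per cell cannot be told apart.

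Among the cytosolic carriers, STARD4 went from slightly lower values at 3 h to clearly higher ones. At 3 h it was at 11.5, 12.6, 12.7 and 12.2 FPKM with vehicle and 10.01, 9.61, 10.98 and 11.6 FPKM with CBD. The arms overlapped by the highest CBD sample, and the log2 fold change of -0.20 ± 0.05 (SE, n = 4 per group) did not pass the threshold (limma adjusted p = 0.0142). It would have passed without vehicle replicate 1 (limma adjusted p = 0.00962) or without CBD replicate 4 (limma adjusted p = 0.00403). With another sample left out the limma adjusted p rose to as much as 0.0741, and under other settings to as much as 0.160.

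At 6 h STARD4 was at 11.8, 12.1, 13.5 and 12.9 FPKM with vehicle and 17.8, 16.2, 17.5 and 16.8 FPKM with CBD. Every CBD sample lay above every vehicle sample, and the log2 fold change was 0.41 ± 0.05 (SE, limma adjusted p = 9.47e-07). At 12 h the vehicle samples were at 11.2, 12.2, 11.6 and 12.7 FPKM and the CBD samples at 22.4, 22.0, 19.5 and 22.2 FPKM. This log2 fold change was 0.80 ± 0.05 (SE, limma adjusted p = 2.05e-12). At 24 h the vehicle samples were at 10.4, 10.9, 10.7 and 10.6 FPKM and the CBD samples at 20.7, 19.9, 19.2 and 19.8 FPKM, a log2 fold change of 0.84 ± 0.05 (SE, limma adjusted p = 1.98e-13). The arms did not overlap at 6, 12 or 24 h, and the exact two-sided permutation test gave 0.0286 each time, the smallest p that 4 against 4 samples allow.

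The CBD effect on STARD4 was 0.62 higher at 6 h than at 3 h on the log2 scale (SE 0.07, limma adjusted p = 2.60e-06), a contrast added after the data were seen, in which 2.1% of all genes were called. Between 24 h and 3 h the effects differed by 1.04 (SE 0.07, limma adjusted p = 1.06e-11).

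OSBP, which exchanges cholesterol for phosphatidylinositol 4-phosphate between the endoplasmic reticulum and the Golgi, changed little. At 24 h it was at 12.8, 13.1, 12.6 and 12.9 FPKM with vehicle and 13.6, 13.5, 13.6 and 13.5 FPKM with CBD. The arms did not overlap, and the log2 fold change of 0.07 ± 0.02 (SE) was called (limma adjusted p = 0.000555), with samples that spanned 12.6 to 13.1 FPKM in one arm and 13.5 to 13.6 FPKM in the other. At 3, 6 and 12 h its log2 fold changes ran from -0.02 to 0.03 and none was called. STARD3, which tethers late endosomes to the endoplasmic reticulum and carries cholesterol between them, was at 14.2 to 15.6 FPKM with vehicle and 15.4 to 16.2 FPKM with CBD at 24 h. These ranges overlapped, and its log2 fold change of 0.09 (95% interval 0.0044 to 0.18) was not called (limma adjusted p = 0.0724).

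**Figure D2:**
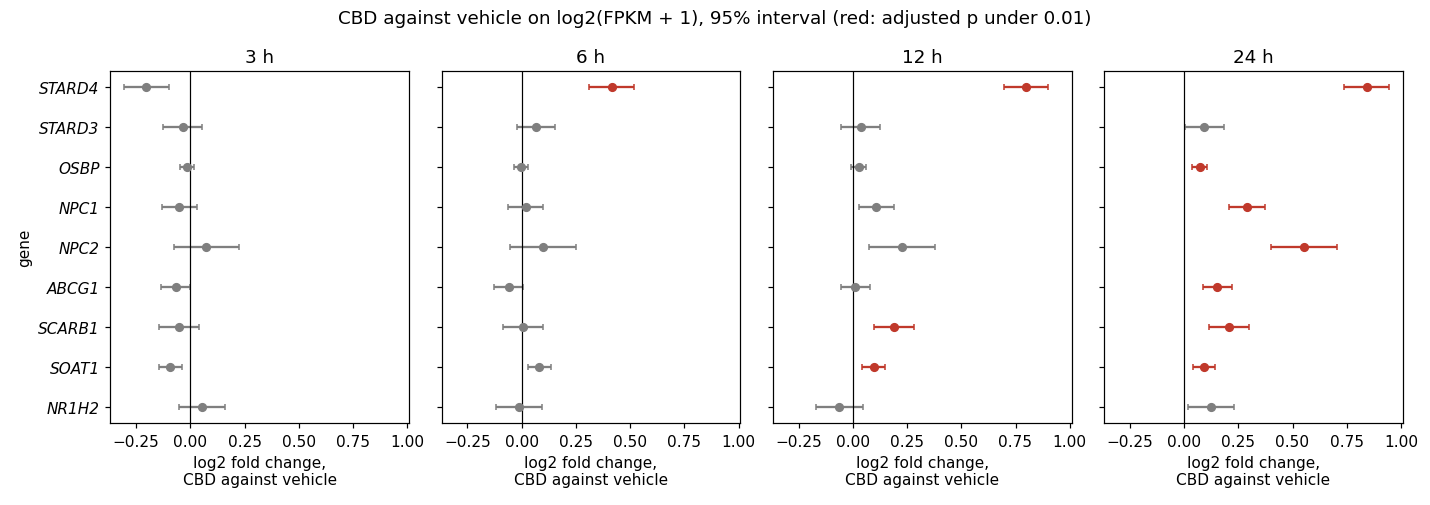
Log2 fold change of CBD against vehicle on log2(FPKM + 1) (horizontal axis) for the 9 genes tested (vertical axis) at each time, with 95% intervals and red marks where the limma adjusted p was under 0.01. STARD4 alone was called at 6 h, 3 genes were called at 12 h and 7 at 24 h, all on the higher side. Of all genes tested 4.07%, 8.85% and 20.8% were called higher at these times.

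Both lysosomal exporters were higher at 24 h. NPC1 was at 4.23, 4.49, 4.38 and 4.19 FPKM with vehicle and 5.65, 5.50, 5.50 and 5.38 FPKM with CBD at that time. The arms lay well apart, the mean was 27.4% higher, and the log2 fold change was 0.29 ± 0.04 (SE, limma adjusted p = 7.10e-07). At 12 h the NPC1 arms did not overlap either, at 4.29 to 4.42 FPKM with vehicle and 4.51 to 4.98 FPKM with CBD, but the log2 fold change of 0.11 was not called (limma adjusted p = 0.0385). At 3 and 6 h the arms overlapped, with log2 fold changes of -0.05 and 0.02.

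NPC2 was at 2.46, 2.22, 2.34 and 2.15 FPKM with vehicle and 3.82, 3.60, 4.55 and 3.39 FPKM with CBD at 24 h. All CBD samples were higher, CBD replicate 3 the most, and the mean was 67.7% higher. The log2 fold change was 0.55 ± 0.07 (SE, limma adjusted p = 4.92e-07), and it stayed between 0.48 and 0.60 with any 1 sample left out. The 1 FPKM added before the logarithm shrinks the fold changes of genes as low as NPC2. At 12 h the ranges were 1.59 to 2.13 FPKM and 2.24 to 2.53 FPKM, without overlap, and the log2 fold change of 0.23 missed the threshold (limma adjusted p = 0.0199). For both exporters the later effect was the larger, with a 24 h minus 3 h difference of 0.34 (SE 0.06, limma adjusted p = 2.24e-05) for NPC1 and 0.48 (SE 0.10, limma adjusted p = 0.000595) for NPC2 on the log2 scale.

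The proteins that pass cholesterol across the plasma membrane gave smaller differences. SCARB1, the receptor SR-BI that exchanges cholesterol with high-density lipoprotein in both directions, was at 58.2, 55.1, 56.4 and 54.5 FPKM with vehicle and 62.3, 66.8, 63.4 and 64.0 FPKM with CBD at 12 h. At 24 h it was at 58.7, 61.0, 58.5 and 55.8 FPKM with vehicle and 66.3, 71.7, 65.9 and 66.8 FPKM with CBD. The arms did not overlap at either time, with log2 fold changes of 0.19 ± 0.05 (SE, limma adjusted p = 0.00204) and 0.21 ± 0.05 (SE, limma adjusted p = 0.000400). Without CBD replicate 2 the call at 12 h was lost (limma adjusted p = 0.0106).

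ABCG1, which exports cholesterol to high-density lipoprotein, was at 6.51, 6.11, 6.03 and 6.11 FPKM with vehicle and 6.71, 6.94, 7.36 and 6.95 FPKM with CBD at 24 h. The lowest CBD sample lay above the highest vehicle sample, and the log2 fold change was 0.15 ± 0.03 (SE, limma adjusted p = 0.000310). At the earlier times its log2 fold changes were -0.07, -0.06 and 0.01, and the arms overlapped.

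ABCA1, the pump that loads cholesterol onto apolipoprotein A-I, had a mean of 0.889 FPKM, under the filter, so no call is made for it and its values are given with an exact test. It was at 0.583, 0.544, 0.595 and 0.635 FPKM with vehicle and 0.535, 0.472, 0.494 and 0.495 FPKM with CBD at 3 h. At 24 h it was at 1.19, 1.29, 1.28 and 1.30 FPKM with vehicle and 1.44, 1.55, 1.44 and 1.56 FPKM with CBD. The CBD samples lay below all vehicle samples at 3 h and above them at 12 and 24 h, with an exact two-sided permutation p of 0.0286 each time, and at 6 h the arms overlapped (exact permutation p = 0.229).

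SOAT1, the acyl-CoA cholesterol acyltransferase that makes cholesteryl esters in the endoplasmic reticulum, differed by under 10% in its means at every time. At 3 h it was at 6.16, 6.30, 6.41 and 6.25 FPKM with vehicle and 6.04, 5.67, 5.76 and 5.87 FPKM with CBD, lower in every CBD sample but not called (log2 fold change -0.09, limma adjusted p = 0.0283). At 24 h it was at 4.85, 5.06, 4.93 and 4.63 FPKM with vehicle and 5.57, 5.06, 5.15 and 5.24 FPKM with CBD. The lowest CBD sample and the highest vehicle sample were almost level, at 5.058 and 5.057 FPKM.

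SOAT1 was called at 12 h (log2 fold change 0.10 ± 0.03 SE, limma adjusted p = 0.00490) and at 24 h (0.09 ± 0.03 SE, limma adjusted p = 0.00375). Either call was lost with quantile normalization or with its time fitted alone. The 12 h call was also lost without vehicle replicate 2, 3 or 4 or CBD replicate 2 or 4 (log2 fold change 0.08 to 0.11 with 1 sample left out), and the 24 h call without vehicle replicate 4 or CBD replicate 1 (0.07 to 0.11). The effect was higher at 6 h than at 3 h by 0.17 (SE 0.04, limma adjusted p = 0.00426), a call lost when any one of 6 of the 16 samples was left out (limma adjusted p from 0.0102 to 0.0145). It was higher at 24 h than at 3 h by 0.18 (SE 0.04, limma adjusted p = 0.000229).

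NR1H2, the broadly expressed LXRβ, was at 7.81, 8.45, 7.17 and 6.98 FPKM with vehicle and 7.83, 8.83, 9.02 and 7.85 FPKM with CBD at 24 h. The arms overlapped, and its log2 fold change of 0.13 (95% interval 0.02 to 0.23) was not called (limma adjusted p = 0.0438). It was called without vehicle replicate 2 (limma adjusted p = 0.00735). With another sample left out the limma adjusted p rose to as much as 0.172, and under other settings to as much as 0.154. At the earlier times its log2 fold changes ran from -0.06 to 0.05.

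Over the 9 genes tested, the calls at the 4 successive times numbered 0, 1, 3 and 7, where 2.46%, 10.2%, 20.1% and 42.1% of all genes tested were called. At 3 h, 3 of the 9 had an unadjusted limma p under 0.05 (STARD4, SOAT1 and ABCG1, with log2 fold changes below 0), as did 23.1% of all genes tested. All calls were on the higher side, and higher calls made up 4.07%, 8.85% and 20.8% of all genes at 6, 12 and 24 h. Without CBD replicate 2 at 12 h, 1 member was called there instead of 3, and 2154 of all genes tested instead of 2533. The median log2 fold change of the 9 was -0.05, 0.02, 0.10 and 0.15 at 3, 6, 12 and 24 h, beside 0.0066, -0.0048, -0.0043 and -0.0032 over all genes tested.

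At 24 h 7 of the 9 genes tested had every CBD sample above every vehicle sample, a pattern found in 25.1% of all genes tested. ABCA1, outside these 9, had it too. SOAT1 had it narrowly, with 5.058 FPKM in its lowest CBD sample and 5.057 FPKM in its highest vehicle sample. The F-test over the 4 times together called 7 of the 9, against 47.2% of all genes, and left out STARD3 (limma adjusted p = 0.153) and NR1H2 (limma adjusted p = 0.149). The same 7 had an effect that differed between 24 h and 3 h, all in the higher direction, against 27.2% of all genes and 12.9% counted in that direction. STARD3 and NR1H2 differed by 0.13 (limma adjusted p = 0.0965) and 0.07 (limma adjusted p = 0.473). Among these 7, OSBP lost that call when 3 h and 24 h were fitted alone (limma adjusted p = 0.0130), when robust moderation was used, and without vehicle replicate 3 at 24 h (limma adjusted p = 0.0103), and SCARB1 when 3 h and 24 h were fitted alone (limma adjusted p = 0.0116).

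Levels were also compared between vehicle at 3 h and vehicle at 24 h. Of the 9 genes, 6 were called, and 57.8% of all genes tested were, while NPC1, NR1H2 and SCARB1 were not called (limma adjusted p = 0.123, 0.242 and 0.114). ABCG1 rose by 0.66 on the log2 scale (SE 0.03, limma adjusted p = 3.15e-15), from 3.43 to 3.68 FPKM at 3 h to 6.03 to 6.51 FPKM at 24 h. NPC2 rose by 0.37 (SE 0.07, limma adjusted p = 8.56e-05). SOAT1 fell by 0.31 (SE 0.03, limma adjusted p = 5.02e-11), STARD3 fell by 0.20 (SE 0.04, limma adjusted p = 0.000194), STARD4 fell by 0.19 (SE 0.05, limma adjusted p = 0.00200) and OSBP fell by 0.07 (SE 0.02, limma adjusted p = 0.000472). ABCA1, below the filter, went from 0.544 to 0.635 FPKM at 3 h to 1.19 to 1.30 FPKM at 24 h with vehicle.

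The change with time and the CBD effect at 24 h share the 24 h vehicle samples, so they are set side by side without a test of one against the other. ABCG1 gave 0.66 with time and 0.15 with CBD, and NPC2 gave 0.37 and 0.55. STARD4 gave -0.19 and 0.84, SOAT1 -0.31 and 0.09, and OSBP -0.07 and 0.07. NPC1 gave 0.07, which was not called (limma adjusted p = 0.123), and 0.29. SCARB1 gave 0.08 with time, which was not called (limma adjusted p = 0.114) but was 0.17 and called with quantile normalization (limma adjusted p = 0.00182).

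**Figure D3:**
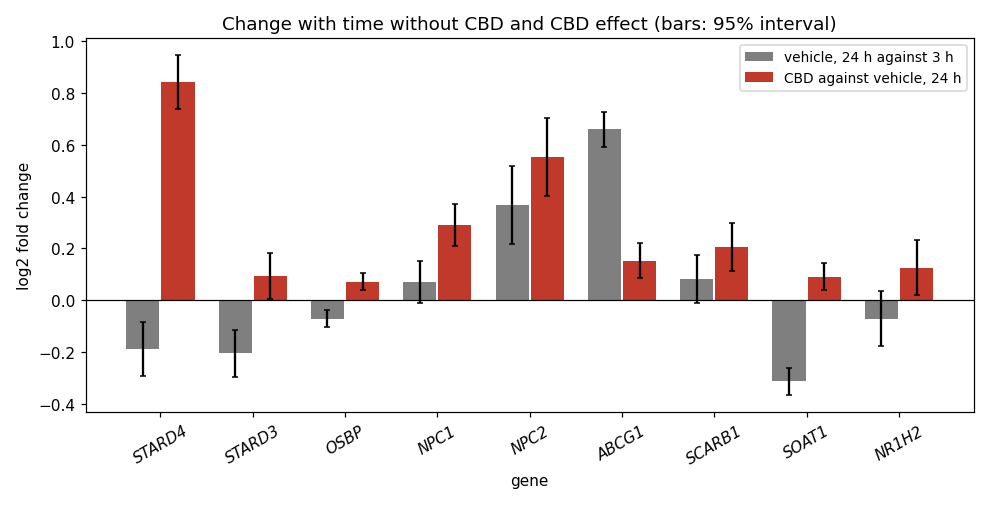
Log2 fold change on log2(FPKM + 1) (vertical axis, bars from 0, with 95% intervals) for the 9 genes tested, in grey for vehicle at 24 h against 3 h and in red for CBD against vehicle at 24 h. ABCG1 had its larger bar with time (0.66 against 0.15) and STARD4 its larger bar with CBD (0.84, against -0.19 with time).

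STARD4 is a known SREBP-2 target, as is NPC1, so SREBP pathway genes were placed beside them. Of 6 such genes, 5 were tested, and 0, 3, 4 and 4 were higher at 3, 6, 12 and 24 h, beside 1.18%, 4.07%, 8.85% and 20.8% of all genes tested, with 1 lower at 3 h, beside 1.28%. The median log2 fold change of these 5 was -0.09, 0.35, 0.62 and 0.62, beside -0.20, 0.41, 0.80 and 0.84 for STARD4. SQLE, the squalene epoxidase of the sterol branch, gave -0.09, 0.35, 0.62 and 0.62 at the same times, and was called from 6 h onward. SREBF2 itself gave 0.05 at 6 h, which was not called (limma adjusted p = 0.367), and 0.46 at 24 h (limma adjusted p = 6.88e-11). SCAP, the escort of SREBP, was not called at any time (0.02 at 24 h, limma adjusted p = 0.775).

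**Figure D4:**
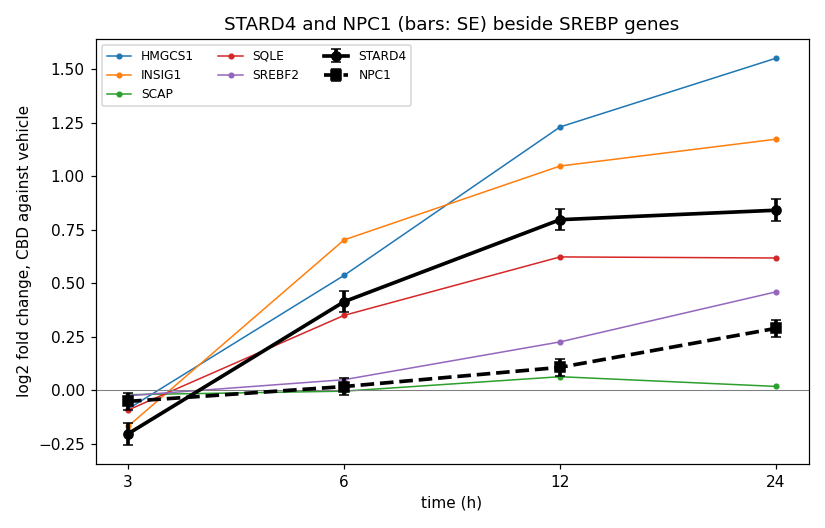
Log2 fold change of CBD against vehicle (vertical axis) by time in hours for STARD4 (solid black) and NPC1 (dashed black), with bars of 1 SE, and for the 5 SREBP genes tested (thin lines). STARD4 lay between SQLE (0.62) and INSIG1 (1.17) at 24 h, and NPC1 (0.29) lay below all of them but SCAP (0.02).

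Over the 32 samples the genes closest to STARD4 on log2(FPKM + 1) were HMGCS1 (Pearson r = 0.974), TMEM97 (r = 0.962) and CYP51A1 (r = 0.961). These points share samples, times and treatment, so the r values describe and test nothing. ABCG1 lay closest to PTPRF, PTPRU and SUN1 (r = 0.984, 0.982 and 0.981) and NPC1 to KMT2B, PER1 and FLCN (r = 0.921, 0.919 and 0.917). For NPC2 the closest were DPH5, SMYD3 and CDC42EP1 (r = 0.951, 0.942 and 0.939), for SCARB1 PIEZO1, WBP2 and USP2 (r = 0.941, 0.940 and 0.936), and for SOAT1 ADIPOR2, EPT1 and HIAT1 (r = 0.924, 0.920 and 0.919). STARD3 lay closest to KRTCAP2, NKAIN1 and SLC35C2 (r = 0.913, 0.909 and 0.895). OSBP and NR1H2 had no gene above r = 0.731, with NANP, FOXJ3 and LHFPL2 closest to OSBP and MAP2K2, MRPL34 and FBXW5 closest to NR1H2. Among the members themselves NPC1 and SCARB1 were most alike (r = 0.869), and ABCG1 and SOAT1 least (r = -0.730).

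Other lysosomal and endosomal genes of the route moved in both directions. Of 9 listed, 8 were tested, and 5 were higher and 1 was lower at 24 h, when 20.8% of all genes tested were higher and 21.3% lower. The median log2 fold change of the 8 was 0.15 beside -0.0032 over all genes. TMEM97, which binds NPC1 and limits its level, went from 45.7 ± 0.848 to 63.0 ± 2.85 FPKM (SD, n = 4), a log2 fold change of 0.45 (limma adjusted p = 6.85e-13). LIPA, the acid lipase that frees cholesterol from its esters, went from 15.02 ± 0.390 to 19.6 ± 0.540 FPKM (SD, n = 4), a log2 fold change of 0.36 (limma adjusted p = 1.19e-09). SCARB2, the lysosomal membrane protein LIMP-2, was lower, at 33.1 ± 0.750 FPKM against 38.0 ± 0.485 FPKM (SD, n = 4, limma adjusted p = 9.69e-09).

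Of 20 contact-site and cytosolic transfer genes, 14 were tested, and 4 were higher and 1 was lower at 24 h (20.8% and 21.3% of all genes), with a median of 0.03. GRAMD1A, the Aster-A protein that draws cholesterol from the plasma membrane, went from 32.5 ± 1.120 to 44.5 ± 3.55 FPKM (SD, n = 4, log2 fold change 0.44, limma adjusted p = 9.27e-09). OSBPL3, an oxysterol-binding relative of OSBP, gave a log2 fold change of 0.36 (limma adjusted p = 7.97e-14). VAPB, an anchor for OSBP in the endoplasmic reticulum membrane, was lower by log2 -0.25 (limma adjusted p = 1.15e-10).

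In the efflux and LXR list 9 of 16 genes were tested, and 3 were higher and 0 lower at 24 h (20.8% and 21.3% of all genes), with a median of 0.09. At 12 h 2 were higher and 1 was lower (8.85% and 11.2% of all genes). At 3 and 6 h 0 were higher (1.18% and 4.07% of all genes), and 1 and 2 were lower (1.28% and 6.13%). LPCAT3, an LXR target that remodels phospholipids, went from 8.08 to 10.9 FPKM (log2 fold change 0.39, limma adjusted p = 2.51e-08), and APOC1, an apolipoprotein, from 3.46 to 4.86 FPKM (log2 fold change 0.39, limma adjusted p = 0.000342). MYLIP, another LXR target, a ubiquitin ligase, was named after its values were seen. It was lower at 3, 6 and 12 h (log2 fold changes -0.13, -0.14 and -0.11) and higher at 24 h (0.19, limma adjusted p = 9.96e-08). NR1H3, the LXRα gene, was not called (log2 fold change -0.04, limma adjusted p = 0.526). The pumps ABCG4, ABCG5, ABCG8, ABCA5 and ABCA7 and the acceptors APOE and APOA1 were below the filter, and like ABCA1 were too low to judge. Their levels were unlike, and no call is made for them. At 24 h ABCG4 had means of 0.658 FPKM with vehicle and 1.26 FPKM with CBD, and ABCG5 of 0.0102 and 0.0050 FPKM.

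For esterification and storage 9 of 15 genes were tested, and 2 were higher and 2 lower at 24 h (20.8% and 21.3% of all genes), with a median of 0.08. ACSL3, an acyl-CoA synthetase found on nascent lipid droplets, gave a log2 fold change of 0.46 (limma adjusted p = 3.32e-12), and DGAT2, which makes triglyceride, gave 0.18 (limma adjusted p = 0.000631). The lipid droplet proteins PLIN2 (-0.22, limma adjusted p = 5.14e-11) and HILPDA (-0.46, limma adjusted p = 1.76e-08) were lower. SOAT2, the second acyl-CoA cholesterol acyltransferase, was below the filter with means at 24 h of 0.0193 FPKM (vehicle) and 0.0197 FPKM (CBD). At this level SOAT1 was the only one of these 2 acyl-CoA cholesterol acyltransferases that could be judged.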

How the data were processed

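The 32 RNA-Seq samples of SK-N-BE(2) cells were grouped from their labels. Per the labels, cells in wells were lysed in TRIzol and polyA RNA was sequenced as single 50-base reads. Per the submitters' processing notes and the study's methods, the authors trimmed reads with Trimmomatic version 0.36, aligned them to hg19 with TopHat and used Cufflinks for expression. The deposited values are FPKM per gene and sample, with no count, so depth and counting error are unknown. Depth ratios between samples came from genes detected in 2 to 8 of them. A second table, of Cuffdiff log2 fold changes and q-values from the authors, was not used here.

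FPKM were transformed to log2(FPKM + 1), entries with a mean of at least 1 were kept, and 8 group means were fitted over all 32 samples in limma (version 3.58.1, under R 4.3.3), with moderation that follows the intensity trend. P-values were adjusted over all genes of a comparison by the Benjamini-Hochberg method and called under 0.01. The sources do not say that samples of a group came from independent passages. The limma p-values therefore weigh a difference against the spread between these samples, pooled over the 8 groups and moderated. For single genes an exact permutation test (two-sided, scipy 1.17.1) was added. Fits were tested on simulated data. All 10 members were named, as were the 2 largest rises and falls called at 24 h in each list of related genes, and the 3 genes most correlated with each member. The SREBP genes were named beside STARD4 and NPC1. Some genes of that list are not reported here. The members and lists were chosen with earlier results of these data known. Alternatives changed the value added, the filter, scaling, samples fitted, moderation and threshold, added a replicate block or left out 1 sample. The contrast of 6 h with 3 h, and 0.1 added with no filter, were chosen after seeing the data.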

Additional observations from a re-analysis of the deposited data

Results flagged for a closer look

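In 80 groups of 4 samples (10 genes in 8 groups), 4 held a sample far from the others by Dixon's gap criterion, which chance alone reaches in about 1 in 20 groups. They were ABCA1 at 1.19 FPKM, the lowest of vehicle at 24 h, STARD4 at 19.5 FPKM, the lowest of CBD at 12 h, SOAT1 at 5.70 FPKM, the lowest of vehicle at 6 h, and SCARB1 at 71.7 FPKM, the highest of CBD at 24 h. The STARD4 and SCARB1 samples still lay above all vehicle samples of their time.

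The CBD effect differed between 24 h and 3 h, by limma's test of the difference itself, for 7 of the 9 genes tested. Of all genes tested 27.2% were called in this contrast, and 12.9% in the higher direction. The differences on the log2 scale were 1.045 for STARD4, 0.48 for NPC2, 0.34 for NPC1, 0.26 for SCARB1, 0.22 for ABCG1, 0.18 for SOAT1 and 0.088 for OSBP. The calls of OSBP and SCARB1 were lost when 3 h and 24 h were fitted alone (limma adjusted p = 0.0130 and 0.0116). That of OSBP was also lost with robust moderation (limma adjusted p = 0.0117) and without vehicle replicate 3 at 24 h (limma adjusted p = 0.0103).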

How the results depend on the processing

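Of 660 member values under other settings, 642 kept their direction and their side of the threshold, 7 passed it no longer, 7 passed it anew and 4 changed sign. With 1 sample left out, 507 of 536 kept both and 11 changed sign. At a threshold of 0.05, 2 members were called at 3 h, 2 at 6 h and 5 at 12 h, and 917, 2434 and 3785 of the 12621 genes tested. With each time fitted alone, 29 and 425 genes were called at 3 and 6 h, on fewer samples. With a mean FPKM of at least 5, 4 members were called at 24 h, beside 3988 of the 8984 genes then tested. The F-test and the 24 h minus 3 h contrast also called 4, and their counts over all genes are not given here. These member counts were lower since NPC1, NPC2 and ABCG1 were then not tested. With 1 sample left out, 0 to 1 members and 164 to 493 genes were called at 3 h. At 12 h, 1 to 3 members and 1989 to 2422 genes were called. The cause of the other changes was not tested. Values that changed sign lay near 0 and were never called. They were NPC1 with vehicle over time at -0.0067 and ABCG1 at 12 h at -0.0012 with quantile normalization, and OSBP at 6 h at 0.0059 with median-ratio scaling and 0.0058 with quantile normalization. With 1 sample left out the ranges at 6 h were -0.021 to 0.046 for NPC1, -0.013 to 0.0079 for OSBP, -0.040 to 0.016 for NR1H2 and -0.017 to 0.038 for SCARB1, and for ABCG1 at 12 h -0.011 to 0.034.

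No pairing by replicate number was seen, but the correlations below cannot exclude one. None of 16 pairs of the same number and time had a correlation of deviations over 0.1 (-0.076 to 0.094), and 5 of 16 CBD samples correlated best with their own number. With the replicate number as a replicate block, 0, 1, 3 and 7 members were called at 3, 6, 12 and 24 h. All genes called made up 3.54%, 12.4%, 22.2% and 44.7% of those tested. No call of a member changed, but more genes were called at every time. They numbered 447, 1570, 2806 and 5641, in place of 310, 1288, 2533 and 5314. ABCA1 is under the filter, so no call in the report rests on these values. Without a filter the log2 fold change of ABCA1 was -0.08, -0.03, 0.11 and 0.14 at the successive times (limma adjusted p = 0.0644, 0.481, 0.00201 and 5.68e-05). With 0.1 added instead, its values at 12 and 24 h were 0.21 and 0.23. Depth is unknown, so low values such as those of ABCA1 and NPC2 have no counting error attached.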
